A study of Mus musculus with 18 samples.

Results

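The genes described here are a set of mitosis and spindle genes: the kinases that drive mitosis with their cyclins, the spindle checkpoint, the centromere proteins, the kinesin motors, and the proteins that shape and part the chromosomes. The set was given as 55 gene symbols. A gene was taken as measured when a probe set, the group of short DNA probes that reads a transcript on the array, carried its symbol alone in the platform annotation, and where several did, the one with the highest mean signal was used. This gave 46 of the 55 genes, out of 8251 genes that could be named in this way. Ccnb1, Cdc25b, Bub1b, Fzr1, Espl1, Cenpf, Tpx2, Hmmr and Ncapd2 were not analysed here.

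The cells were mouse G1E-ER4 cells. G1E is an erythroid line grown from embryonic stem cells in which Gata-1, the central transcription factor of red cell formation, had been disrupted, and ER4 is 1 subclone of it that carries Gata-1-ER, a fusion of Gata-1 with the estradiol-binding part of the estrogen receptor. Estradiol in the medium switches the fusion on and the cells mature. The 6 groups were cells before estradiol (0 h) and after 3, 7, 14, 21 and 30 h of it, each with biological replicates A, B and C (3 a time), read on 18 Affymetrix MG-U74Av2 arrays, and all 6 groups carried the fusion and the Gata-1 disruption. The labels give no group without estradiol at a late time and no group without the fusion among the 18 arrays, so time in culture, estradiol itself and the action of Gata-1-ER cannot be told apart. The question a time course of this kind answers for these genes is when, during maturation, their RNA rises or falls.

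In a dividing cell, Cdk1 bound to a mitotic cyclin starts mitosis, Polo and Aurora kinases build the spindle, and the spindle checkpoint holds the anaphase-promoting complex (APC/C) back until every kinetochore, the structure on the centromere that grips microtubules, is attached. The APC/C then marks cyclin B and securin for destruction, the sister chromatids part, and the cell divides. Most genes of this machinery are transcribed mainly in G2 and mitosis, so their RNA tracks dividing cells. Erythroid precursors divide several times while they make hemoglobin and stop dividing in the last stage, before the nucleus is expelled.

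The deposited signals had a trimmed mean of 150.1 on each of the 18 arrays, so they came scaled to a common level, and the median signal of an array lay between 38.2 and 50.9. The ratio of the 3′ to the 5′ control probe sets was 0.914 to 1.27 for Gapdh and 0.968 to 2.04 for actin, with the highest Gapdh ratio at 30 h (array B, against at most 1.09 at the other times) and the highest actin ratio at 0 h. The part of these ratios in the results was not tested. Erythroid markers marked the cells as labelled: the summed signal of the 7 measured of 9 listed ran from 8979 to 11073 at 0 h and from 52166 to 62888 at 30 h. Summed signals at 0 h and at 30 h were 106 to 154 and 127 to 155 for 7 mast cell and basophil markers, 56.8 to 67.2 and 60.0 to 69.6 for 3 megakaryocyte markers, 231 to 255 and 266 to 408 for 7 neutrophil and macrophage markers, 71.3 to 86.3 and 41.2 to 83.0 for 4 lymphocyte markers, and 569 to 649 and 733 to 1008 for 6 fibroblast and stromal markers. Tpsab1 of mast cells, Lyz2 of macrophages and Fcer1a of basophils had means below 10 at every time, and other members carried most of their lists' sums. The median mast cell and basophil marker stood at 47.6% of its 0 h signal at 30 h, and an F test over all 6 times called 3 of the 7. The neutrophil and macrophage sum and the fibroblast and stromal sum were higher on every 30 h array than on every 0 h array. The megakaryocyte sum reached 111 to 192 at 14 h, where Gp9 had risen by 1.46 on the log2 scale, and the part of other cell types in the results was not tested. At 3, 14, 21 and 30 h replicate A had the lowest median of the 46 genes (at 30 h 6.24 on the log2 scale).

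Some of the mitotic genes rose by 14 h, and most fell steeply between 21 h and 30 h. At 14 h of estradiol 17 of the 46 genes were higher than at 0 h and 0 were lower. At 30 h 37 were lower than at 0 h and 0 were higher, and from 21 h to 30 h alone 41 fell. The median gene stood at 146% of its 0 h signal at 14 h, at 113% at 21 h and at 32.6% at 30 h. Counts are of genes past an adjusted p of 0.05 in the linear model of limma, fitted to the log2 of signal plus 16 after quantile normalization and adjusted over all 12422 probe sets. The constant makes log2 changes of weak signals smaller than the ratio of the signals. Log2 changes are given with their standard error (SE), and signals of single arrays are on the deposited scale. In bulk RNA, fewer dividing cells and less mitotic RNA in each cell cannot be told apart.

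**Figure D1:**
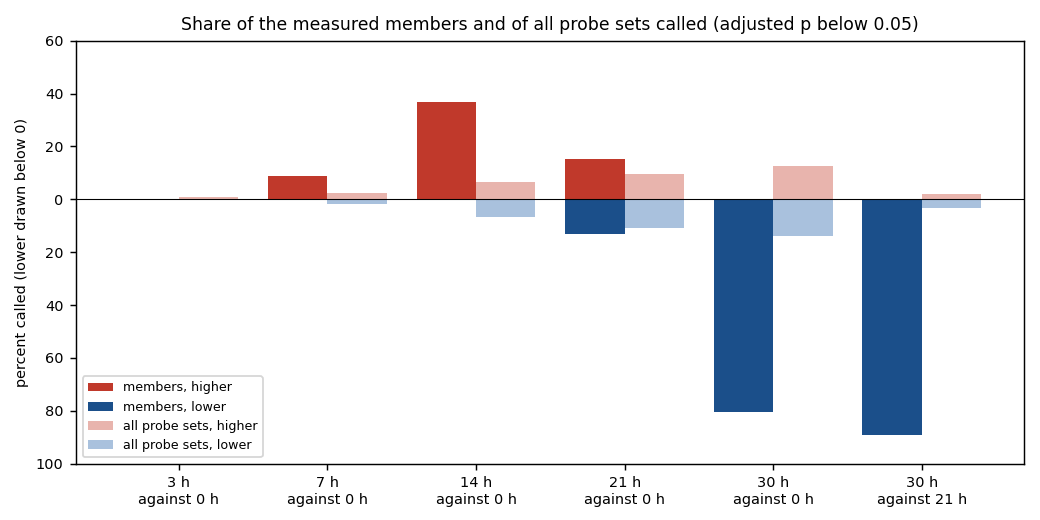
Percent of the 46 mitosis and spindle genes (dark bars) and of all 12422 probe sets (pale bars) called higher, drawn above 0, or lower, drawn below 0, at an adjusted p below 0.05 in each comparison of times. The genes' bars reach their greatest height above 0 at 14 h (17 of 46) and fill most of the space below 0 at 30 h (37 of 46 against 0 h and 41 of 46 against 21 h), where the pale bars stay at 13.8 and 3.12 percent.

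Early on few genes were called. At 3 h the fitted change was above 0 for 44 of the 46 genes, with a median of 0.21 on the log2 scale against 0.00076 for all probe sets. By limma 0 genes were called higher and 0 lower at 3 h, with 11 higher and 0 lower at an unadjusted p below 0.05. Among all probe sets 0.757% passed upward and 0.306% downward (4.47% and 3.87% unadjusted). Ccna2 was called when array 21 h A or 21 h C was omitted, at an adjusted p of 0.0453 and 0.0473. At 7 h the 4 genes called higher were Ccna2, Cks2, Plk1 and Cenpa, against 2.48% of all probe sets. Called lower were 0 (2 at an unadjusted p below 0.05), against 1.69% (6.96% unadjusted). The count at 7 h was 2 without array 0 h A, 2 without 7 h B, and 1 when arrays were scaled to a common median in place of quantile normalization. Between 3 h and 7 h limma called 0 genes in either direction (4 higher and 2 lower unadjusted). The background was 0.733% higher and 0.33% lower (4.89% and 4.76% unadjusted).

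The 17 genes called higher at 14 h were Ccna2, Ccnb2, Ccnf, Cdc25c, Cks2, Plk1, Aurka, Cdca8, Pttg1, Cenpa, Cenpb, Kif20a, Kif22, Nusap1, Top2a, Smc4 and Mki67, which is 37.0% of the 46 where 6.55% of all probe sets were called higher. Of all probe sets 6.77% were called lower at 14 h (12.1% unadjusted). Of the 46 genes 0 were (1 at an unadjusted p below 0.05, Rad21, which was called without array 7 h B). The median change was 0.49 against 0.011 for all probe sets. In 24 genes all 3 arrays at 14 h lay above all 3 at 0 h, in 4 all lay below, and in 18 they overlapped. Such separation was not counted over all probe sets, so these counts have no background share. The count of 17 was 11 without array 0 h A and 8 under median scaling, while the median change under median scaling was 0.44. Median scaling lost the calls of Ccna2, Ccnf, Aurka, Cdca8, Kif20a, Kif22, Top2a, Smc4 and Mki67. From 7 h to 14 h limma called 0 genes (5 higher and 0 lower unadjusted) against 1.26% of probe sets higher and 1.07% lower (6.38% and 6.45% unadjusted). Without array 30 h A, Ccnb2 was called in that step.

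At 21 h the counts in both directions were near the background. There were 7 genes higher than at 0 h, against 9.75% of all probe sets: Ccnb2, Cdc25c, Cks2, Plk1, Pttg1, Cenpa and Nusap1, all of which had been higher at 14 h. There were 6 lower, against 10.9% of all probe sets: Cdk1, Mad2l1, Ttk, Stmn1, Smc2 and Rad21, all of which were also lower at 30 h. The shares of the 46 were 15.2% and 13.0%. The 7 became 4 without array 21 h C and the 6 became 2 without 21 h A. From 14 h to 21 h the mean signal dropped in 41 of the 46 genes. Only Stmn1 was called lower (16 unadjusted) and 0 higher (0 unadjusted), against 1.38% and 0.942% of all probe sets (7.05% and 6.69% unadjusted). That count was 0 without array 14 h B, 14 h C or 21 h A, 2 without 21 h C or 30 h C, and 3 without 14 h A or 30 h A.

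At 30 h 80.4% of the 46 genes were lower than at 0 h, where 13.8% of all probe sets were lower and 12.8% higher. Of the 46, 0 were called higher by limma (1 unadjusted, against 17.7% of all probe sets). The median change was -1.52 against 0.05 for all probe sets. In 38 genes all 3 arrays at 30 h lay below all 3 at 0 h, in 8 they overlapped and in 0 all lay above. There were 32 genes at least 2-fold lower and 14 at least 4-fold lower. Between 21 h and 30 h 41 genes fell, 89.1% against 3.12% of all probe sets, and 0 rose (0 unadjusted), against 1.87%. In that step the fitted change was below 0 in all 46 genes, with a median of -1.59, and in 43 every array at 30 h lay below every array at 21 h. Separation of arrays was not counted over all probe sets in either comparison, so the 38 and the 43 have no background share. The lowest mean of the 6 times was that of 30 h in 44 genes, all but Cenpb and Cenpe. At 30 h 11 genes had means below the mean array median of 43.5, against 1 gene at 0 h.

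**Figure D2:**
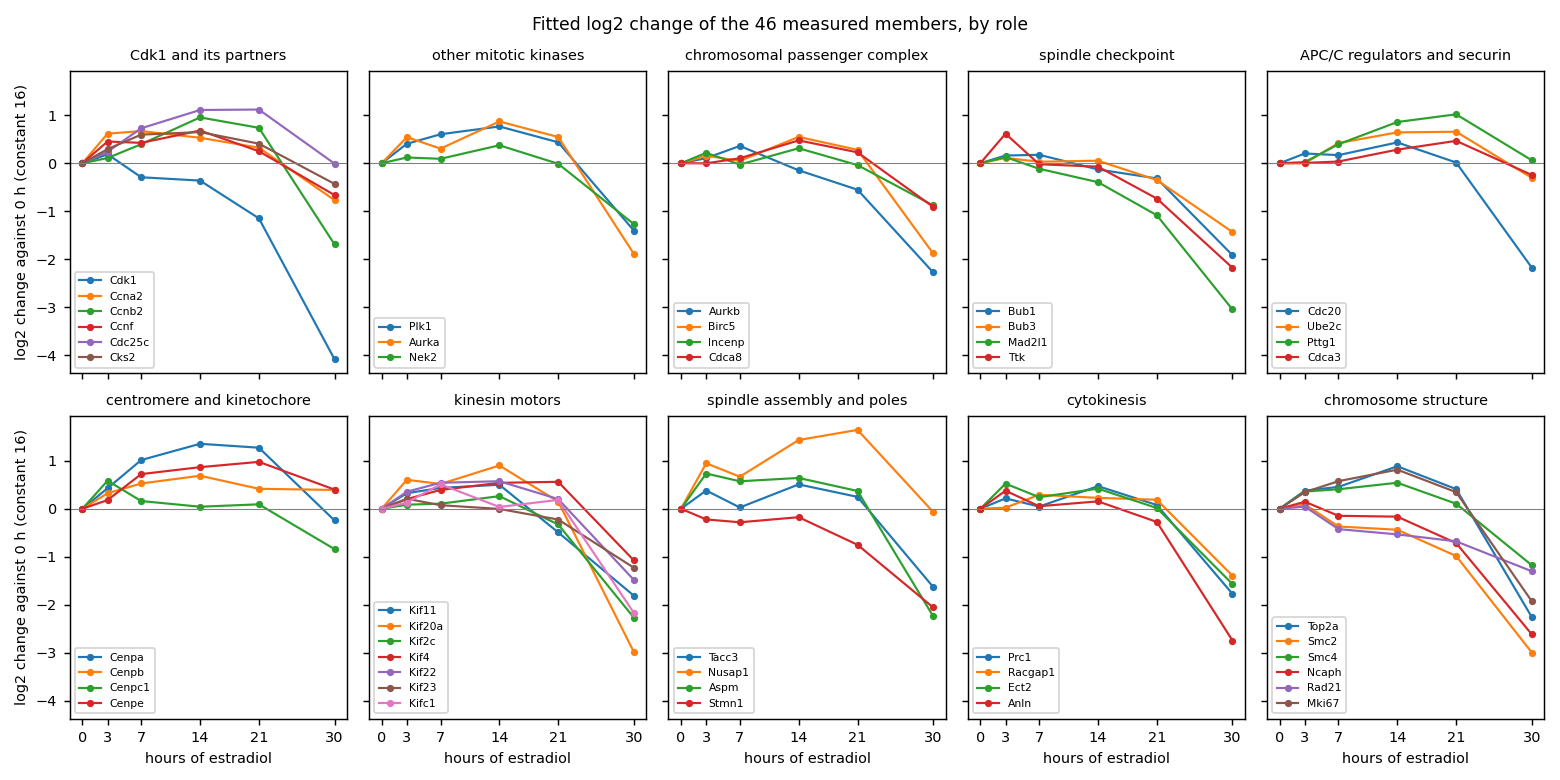
Fitted log2 change against 0 h (vertical axis, log2 of signal plus 16) over hours of estradiol (horizontal axis) for the 46 measured genes, 1 line a gene, in 10 panels by role. Lines rise or stay near 0 up to 14 h in most panels and drop between 21 h and 30 h, while Cdk1, Mad2l1, Smc2 and Rad21 are already lower at 21 h and Cenpb and Cenpe end above 0.

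Whether the last 9 h moved a gene further down than the first 21 h was asked gene by gene with a contrast in the same model. The contrast was the change from 21 h to 30 h less the change from 0 h to 21 h. A gene that rose by 21 h and then only returned is below 0 in it too. In 28 of the 46 genes it was called below 0, against 4.09% of all probe sets, and 23 of these were lower at 30 h than at 0 h. At an unadjusted p below 0.05 it was below 0 in 40, against 9.61% of all probe sets. The fitted value was below 0 in 45. The F test over all 6 times called 42 of the 46 genes, against 27.2% of all probe sets. The 4 not called were Ube2c, Cdca3, Cenpb and Cenpe. Of the 17 genes higher at 14 h, 16 fell from 21 h to 30 h, all but Cenpb, and 12 ended below their 0 h level.

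**Figure D3:**
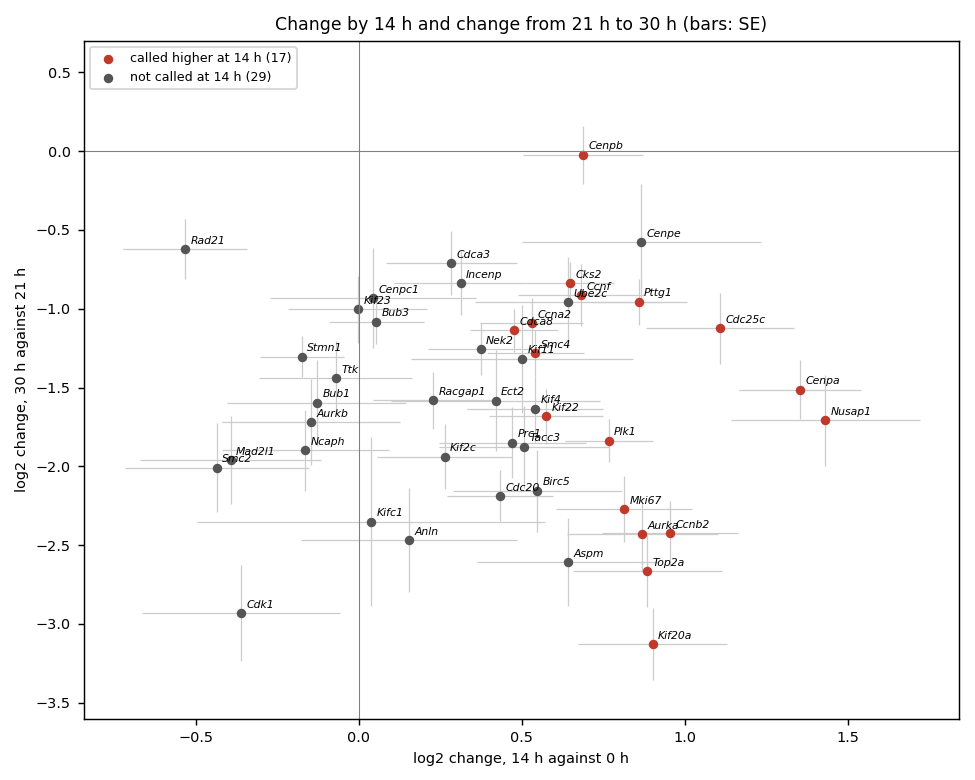
Each point is 1 of the 46 genes, with its log2 change at 14 h against 0 h (horizontal) and its log2 change from 21 h to 30 h (vertical), and bars of 1 SE, with the 17 genes called higher at 14 h in red. Nearly all points lie well below 0 on the vertical axis whether or not the gene had risen by 14 h, and Cenpb sits at -0.02.

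Promoter sequence was also read for these genes. Windows of 300 bases, from 250 before the annotated start to 50 after it, came from RefSeq (mouse build GRCm38.p6), and 38 of the 46 genes had at least 1, with 41 windows in all. The windows were searched on both strands for the cell cycle genes homology region (CHR; TTTGAA, which reads TTCAAA on the other strand, or TTCGAA), for CCAAT (read as ATTGG on the other strand) and for motifs bound by GATA factors, which were AGATAA, also AGATAG, also TGATAA, also TGATAG. As background, the CHR is the element through which complexes of the MuvB core hold G2 and mitosis genes silent in resting cells and raise them in G2, and CCAAT is the box bound by NF-Y. A match is a description of letters, not a site or a cause. The 4 windows printed first carry both elements, Ccnb2 and Cenpa being higher at 14 h and Cdk1 and Aspm only lower at 30 h, and Mad2l1 and Cenpb, printed last, carry neither. Capitals mark the CHR and CCAAT matches, and each sequence runs 5′ to 3′ on the strand of its gene.
Ccnb2: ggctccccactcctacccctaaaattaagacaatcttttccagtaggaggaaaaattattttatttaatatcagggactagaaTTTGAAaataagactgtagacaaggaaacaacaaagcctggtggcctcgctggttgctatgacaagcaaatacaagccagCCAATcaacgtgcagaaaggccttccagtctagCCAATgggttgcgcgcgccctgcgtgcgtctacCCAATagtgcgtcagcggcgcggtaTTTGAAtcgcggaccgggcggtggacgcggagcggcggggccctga
Cenpa: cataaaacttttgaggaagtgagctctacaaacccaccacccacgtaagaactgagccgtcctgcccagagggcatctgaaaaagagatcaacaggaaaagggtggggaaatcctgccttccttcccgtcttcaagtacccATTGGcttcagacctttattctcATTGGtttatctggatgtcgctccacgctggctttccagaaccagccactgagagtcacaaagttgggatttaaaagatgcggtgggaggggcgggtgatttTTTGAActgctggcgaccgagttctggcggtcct
Cdk1: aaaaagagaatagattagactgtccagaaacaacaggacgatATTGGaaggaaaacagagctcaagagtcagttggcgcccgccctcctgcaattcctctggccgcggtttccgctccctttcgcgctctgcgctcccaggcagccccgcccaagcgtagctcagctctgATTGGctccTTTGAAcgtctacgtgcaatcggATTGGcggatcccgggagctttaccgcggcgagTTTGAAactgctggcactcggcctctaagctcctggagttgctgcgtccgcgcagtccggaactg
Aspm: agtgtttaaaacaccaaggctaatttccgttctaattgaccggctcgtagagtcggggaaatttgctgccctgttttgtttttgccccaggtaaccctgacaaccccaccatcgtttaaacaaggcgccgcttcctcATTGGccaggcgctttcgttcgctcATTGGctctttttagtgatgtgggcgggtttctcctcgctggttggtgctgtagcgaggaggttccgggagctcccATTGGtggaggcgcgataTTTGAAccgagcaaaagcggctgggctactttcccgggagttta
Mad2l1: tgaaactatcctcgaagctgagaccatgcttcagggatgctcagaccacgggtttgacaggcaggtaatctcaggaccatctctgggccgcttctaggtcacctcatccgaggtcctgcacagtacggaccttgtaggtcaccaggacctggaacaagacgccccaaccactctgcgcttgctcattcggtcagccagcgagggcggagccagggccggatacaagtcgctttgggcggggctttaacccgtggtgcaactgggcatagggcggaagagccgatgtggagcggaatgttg
Cenpb: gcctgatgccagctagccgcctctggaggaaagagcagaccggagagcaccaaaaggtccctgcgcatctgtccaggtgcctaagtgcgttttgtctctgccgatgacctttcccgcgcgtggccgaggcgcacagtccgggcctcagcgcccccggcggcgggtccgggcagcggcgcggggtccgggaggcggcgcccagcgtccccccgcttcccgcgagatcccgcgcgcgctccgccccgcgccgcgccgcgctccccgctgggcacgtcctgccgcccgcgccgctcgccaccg
The Ccnb2 window lay at chr9:70421505-70421804 (minus strand), that of Cenpa at chr5:30666636-30666935 (plus strand), that of Cdk1 at chr10:69352863-69353162 (minus strand), that of Aspm at chr1:139454523-139454822 (plus strand), that of Mad2l1 at chr6:66534971-66535270 (plus strand) and that of Cenpb at chr2:131180018-131180317 (minus strand). With the first base after the 250 upstream ones as position 0, the 3 CCAAT matches of Ccnb2 began at -87, -54 and -21 and its CHR matches at -167 and 4. In Cenpa 2 CCAAT matches began at -109 and -86, and the CHR match at 16. The 3 CCAAT matches of Cdk1 began at -208, -80 and -48 and its CHR matches at -71 and -15.

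A CHR match was found in 30 of the genes' 41 windows (73.2%), against 19.2% of all 32851 windows and 14.6% of the 8412 windows of genes on the array. CCAAT was found in 32 (78.0%), against 37.4% and 37.0%, and at least 2 CCAAT matches in 23 (56.1%), against 11.7% and 13.6%. Both elements were found in 28 windows (68.3%), against 7.52% and 6.02%. GATA motifs were found in 11 windows (26.8%), against 29.8% and 20.6%. Birc5, Cenpb, Mad2l1, Ncaph, Nusap1, Pttg1 and Tacc3 had no window with a CHR or CCAAT match. Of these 7, Mad2l1 and Ncaph were among the 6 genes with the deepest fitted log2 falls at 30 h, and Pttg1, Nusap1 and Cenpb were not called at 30 h.

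**Figure D4:**
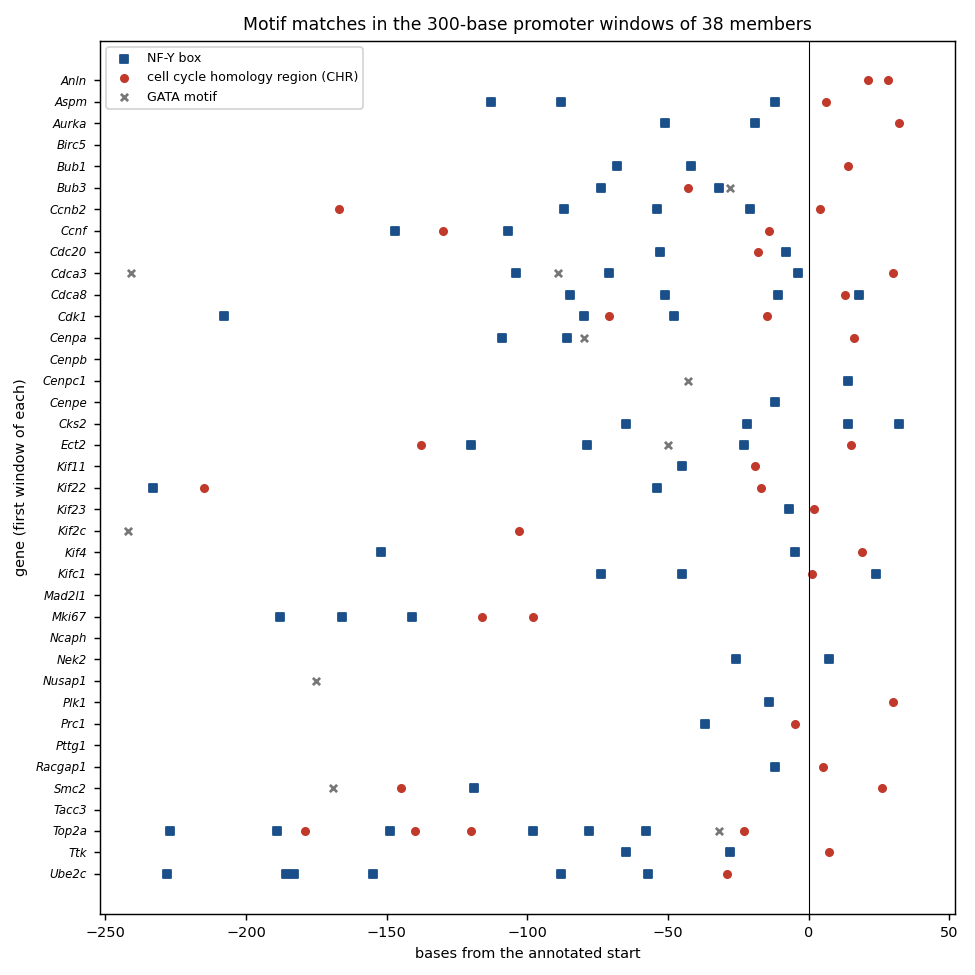
Position of each match in the first promoter window of 38 genes, in bases from the annotated start (horizontal axis, start at 0), with squares for the CCAAT box bound by NF-Y, circles for the CHR and crosses for GATA motifs. Most rows show CCAAT matches upstream and a CHR match close to the start, while rows such as Mad2l1, Cenpb and Birc5 are empty.

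All 6 genes of Cdk1 and its partners fell from 21 h to 30 h, and 5 of them had been higher at 14 h. Cdk1, the kinase that drives entry into mitosis, was lower from 21 h on, while the other 5 measured genes of this role, the cyclins Ccna2, Ccnb2 and Ccnf, the phosphatase Cdc25c and the small Cdk-binding protein Cks2, were all higher at 14 h. At 30 h 5 of the 6 were lower than at 0 h. Cdk1 read 983, 925.5 and 933 before estradiol, 1046, 1175.5 and 1038 by 3 h, and 792.5, 803 and 744 by 7 h. Cdk1 then read 571.5, 829.7 and 899 by 14 h, 368, 432 and 482 by 21 h, and 13.5, 86.5 and 50.9 by 30 h, in the order A, B and C used throughout. Every array at 14, 21 and 30 h lay below every array at 0 h, and those at 30 h were the lowest. Cdk1 fell by 1.15 (SE 0.30, adjusted p = 0.00937) at 21 h and fell by 4.08 (SE 0.30, adjusted p = 4.1e-09) at 30 h, the largest fall of the 46 genes, to 5.31% of its 0 h mean. The change at 14 h, -0.36 (SE 0.30, adjusted p = 0.556), did not pass the test. With a constant of 1 in place of 16 the call at 21 h was lost (adjusted p = 0.0583).

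Ccnb2, cyclin B2, read 1928, 1579 and 1663 before estradiol, 1887, 2059 and 1702 by 3 h, and 1832, 2416 and 2792 by 7 h. Ccnb2 then read 3151, 3558.5 and 3813 by 14 h, 2858, 3523 and 3642 by 21 h, and 320.1, 651 and 744 by 30 h. Its 14 h and 21 h arrays lay above all 0 h arrays, and its 30 h arrays far below them. The rise was 0.95 (SE 0.21, adjusted p = 0.00351) at 14 h and 0.74 (SE 0.21, adjusted p = 0.0141) at 21 h, and the change from 21 h to 30 h was -2.43 (SE 0.21, adjusted p = 7.43e-07). The 21 h call was lost when 0 h B or 21 h C was left out (adjusted p 0.0566 to 0.0568). At 30 h Ccnb2 stood at 33.2% of its 0 h mean (-1.69 (SE 0.21, adjusted p = 2.9e-06)). Ccna2, cyclin A2, which acts in S phase and at entry into mitosis, rose sooner. It read 822, 841 and 882 before estradiol, 1225, 1525 and 1149.9 by 3 h, and 1218, 1428 and 1348 by 7 h. Ccna2 then read 1142, 1456 and 1156 by 14 h, 870.0, 1098 and 1455 by 21 h, and 413.5, 470.5 and 586 by 30 h. From 3 h to 14 h every array was above the 0 h arrays, the change at 7 h being 0.67 (SE 0.16, adjusted p = 0.0169) and at 14 h 0.53 (SE 0.16, adjusted p = 0.0294). At 30 h it was lower (-0.77 (SE 0.16, adjusted p = 8.23e-04)). The 7 h call was lost when 0 h A or 0 h B or 0 h C or 7 h B or 7 h C was left out (adjusted p 0.053 to 0.0694), and the 14 h call when 0 h A or 0 h B or 0 h C or 14 h A or 14 h B was left out (adjusted p 0.0532 to 0.131). Without the intensity trend in the variance both were lost as well.

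Ccnf, cyclin F, the substrate-binding part of a ubiquitin ligase, read 478, 628 and 565 before estradiol, 780.5, 861.5 and 629.7 by 3 h, and 771, 796 and 631 by 7 h. Ccnf then read 877, 929 and 834 by 14 h, 460.2, 691.5 and 914 by 21 h, and 250, 347 and 386 by 30 h. Its 14 h arrays were all above and its 30 h arrays all below those at 0 h, with a change of 0.68 (SE 0.19, adjusted p = 0.0227) at 14 h and -0.66 (SE 0.19, adjusted p = 0.0141) at 30 h. The 14 h call was lost when 0 h A or 0 h C or 14 h A or 14 h B was left out (adjusted p 0.0585 to 0.105), the 30 h call when 0 h B or 30 h A was left out (adjusted p 0.0686 to 0.0929). Cdc25c, the phosphatase that removes the inhibitory phosphates of Cdk1, read 109.7, 106 and 171 before estradiol, 127, 143.5 and 182 by 3 h, and 184, 219 and 255.5 by 7 h. Cdc25c then read 291.5, 256 and 289 by 14 h, 258, 244 and 319 by 21 h, and 75.8, 151 and 135 by 30 h. Its 7, 14 and 21 h arrays lay above all 0 h arrays, and its 30 h arrays overlapped them. The change was 1.11 (SE 0.23, adjusted p = 0.00208) at 14 h, 1.12 (SE 0.23, adjusted p = 0.00107) at 21 h and -0.01 (SE 0.23, adjusted p = 0.988) at 30 h. A weaker probe set for Cdc25c read means of 68.5 at 0 h and 35.2 at 30 h, not called (-0.65, SE 0.27, adjusted p = 0.0913). Cks2, which binds Cdk1 and its substrates, read 1911, 1622 and 1503 before estradiol, 1953, 2249.7 and 1891 by 3 h, and 2709, 2403 and 2499.7 by 7 h. Cks2 then read 2371, 3129.7 and 2699 by 14 h, 2149, 2598 and 2520.4 by 21 h, and 1600.2, 1321 and 1264 by 30 h. Every array from 7 h to 21 h exceeded the 0 h arrays, and the 30 h arrays overlapped them. Cks2 rose by 0.60 (SE 0.13, adjusted p = 0.0113) at 7 h, 0.65 (SE 0.13, adjusted p = 0.00201) at 14 h and 0.41 (SE 0.13, adjusted p = 0.0336) at 21 h. Its 7 h call was lost when 0 h C or 7 h A was left out (adjusted p 0.0672 to 0.0763) and its 21 h call when 0 h B or 0 h C or 21 h B or 21 h C was left out (adjusted p 0.0867 to 0.162). With only the groups compared Cks2 lost both calls, and it also lost that at 7 h under median scaling and that at 21 h without the intensity trend. At 30 h it was lower by the smallest margin of any called gene (-0.43 (SE 0.13, adjusted p = 0.0198)), a call that was lost when 0 h A or 30 h B or 30 h C was left out (adjusted p 0.0749 to 0.109) and, at an adjusted p of 0.194 and 0.379, without quantile normalization and under median scaling.

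**Figure D5:**
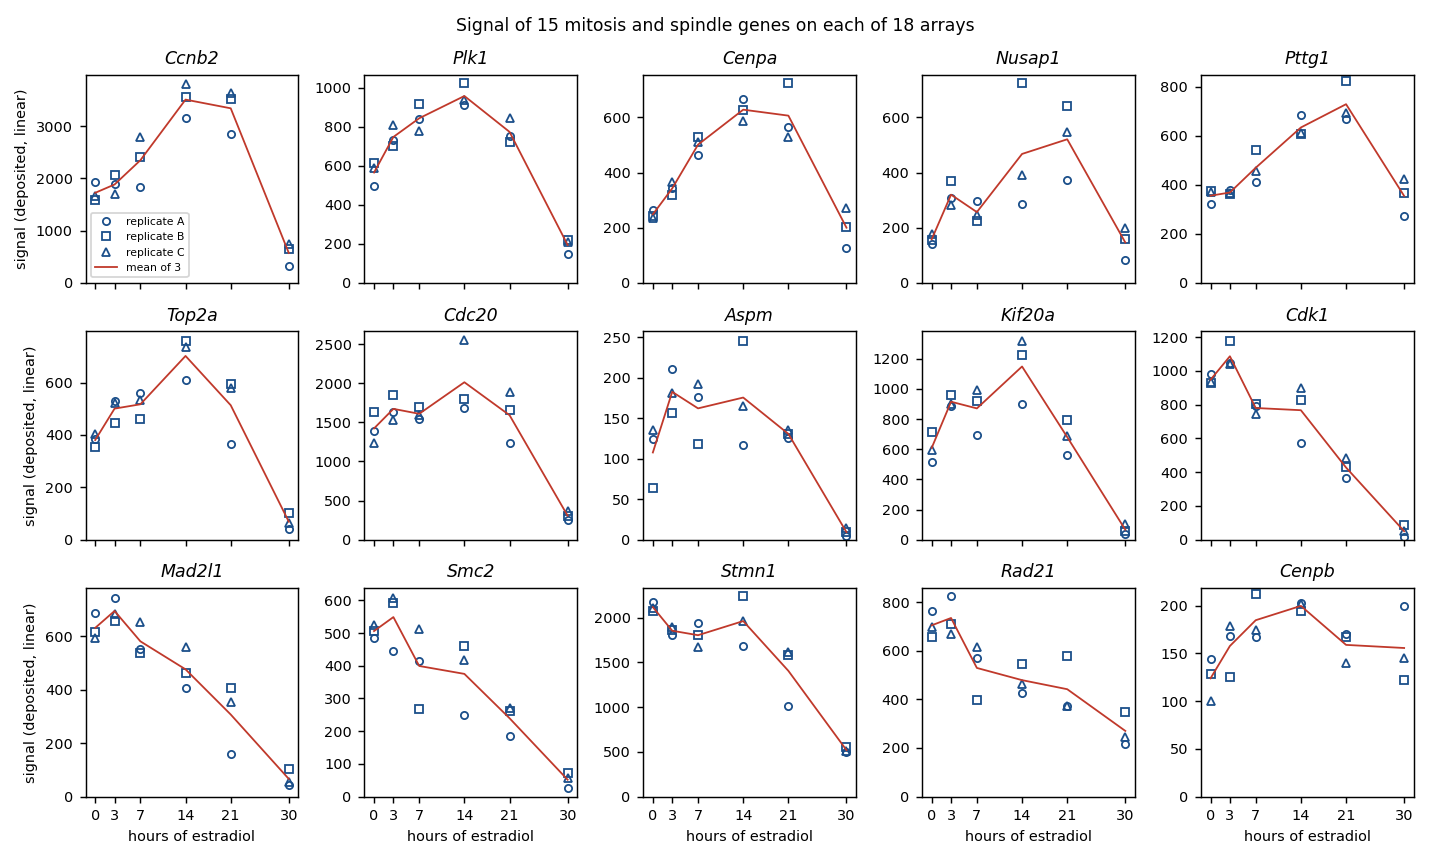
Deposited signal (vertical axis, linear, from 0) of 15 genes on each of the 18 arrays over hours of estradiol (horizontal axis), with circles, squares and triangles for replicates A, B and C and a line through the mean of 3. The upper row holds genes that peak at 14 h or 21 h and fall by 30 h, such as Ccnb2 from 3508 to 572, and the lower row holds genes that decline over the course, such as Mad2l1, beside Cenpb, whose 30 h arrays overlap those at 0 h.

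All 3 other mitotic kinases fell by 30 h, and 2 of them, Plk1 and Aurka, rose first. Plk1, the Polo kinase of centrosome maturation and mitotic entry, read 495, 614 and 588 before estradiol, 732, 704 and 807.5 by 3 h, and 838, 916 and 777 by 7 h. Plk1 then read 914, 1024 and 936 by 14 h, 752, 723 and 846 by 21 h, and 149, 222 and 211 by 30 h. Every later array up to 21 h was above the 0 h arrays, and the 30 h arrays were below them by a wide gap. Plk1 rose by 0.60 (SE 0.14, adjusted p = 0.0118) at 7 h, 0.77 (SE 0.14, adjusted p = 5.36e-04) at 14 h and 0.44 (SE 0.14, adjusted p = 0.0255) at 21 h, and fell by 1.84 (SE 0.14, adjusted p = 8.98e-08) from 21 h to 30 h, to 34.3% of its 0 h mean. The 7 h call was lost when 0 h A or 7 h B was left out (adjusted p 0.0644 to 0.0688), and the 21 h call when 0 h A or 21 h A or 21 h C was left out (adjusted p 0.0581 to 0.12). Both calls were also lost under median scaling and with the mean over its probe sets (adjusted p 0.171 to 0.414 at 7 h). The 21 h call was lost without the intensity trend and with only the groups compared as well (adjusted p 0.0546 to 0.164 over these settings). Plk1 was also read by 2 weaker probe sets, of which 1 gave -2.23 (SE 0.25) and 1 gave 0.02 (SE 0.31, adjusted p = 0.978) at 30 h. Aurka, Aurora A, the kinase of the spindle poles, read 217, 211.5 and 244 before estradiol, 352, 367.5 and 293 by 3 h, and 293.5, 235 and 313 by 7 h. Aurka then read 331, 520.5 and 388.5 by 14 h, 247, 388 and 334 by 21 h, and 27.0, 62.9 and 59.1 by 30 h. Its arrays at 3, 14 and 21 h lay above those at 0 h, and its 30 h arrays lay below. The rise at 14 h was 0.87 (SE 0.23, adjusted p = 0.0153), lost when 0 h B or 14 h B was left out (adjusted p 0.0533 to 0.0822), and the change from 21 h to 30 h was -2.43 (SE 0.23, adjusted p = 2.96e-06). Nek2, a kinase that parts the centrosomes, had means between 211 and 289 up to 21 h and 79.7 ± 12.8 (SD, n = 3) at 30 h (-1.27 (SE 0.16, adjusted p = 5.01e-06)).

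All 4 genes of the chromosomal passenger complex, which corrects faulty attachments and guides cytokinesis, fell by 30 h, and Cdca8 had been higher at 14 h. Aurkb, Aurora B, the kinase of the complex, read 372, 286 and 339 before estradiol, 290.5, 374 and 436 by 3 h, and 450.1, 414 and 399.8 by 7 h. Aurkb then read 286, 265 and 315.5 by 14 h, 202, 265 and 169.5 by 21 h, and 28.4, 44.4 and 110.0 by 30 h. Its 21 h and 30 h arrays lay below all 0 h arrays. The change at 21 h, -0.55 (SE 0.27, adjusted p = 0.191), did not pass the test, and that at 30 h was -2.27 (SE 0.27, adjusted p = 2.23e-06). Cdca8, borealin, read 510.2, 516 and 639.8 before estradiol, 547, 571 and 548 by 3 h, and 563, 592 and 607 by 7 h. Cdca8 then read 747, 710.0 and 827 by 14 h, 529, 742 and 687.5 by 21 h, and 222, 308.5 and 286 by 30 h. The 14 h arrays were all above and the 30 h arrays all below the 0 h arrays. It rose by 0.48 (SE 0.14, adjusted p = 0.0229) at 14 h, a call lost when 0 h A or 0 h B or 14 h A or 14 h C was left out (adjusted p 0.0761 to 0.0966), without the intensity trend (adjusted p = 0.0508) and with only the compared groups in the model. At 30 h it fell by 0.91 (SE 0.14, adjusted p = 2.86e-05). Birc5, survivin, was at 23.4% of its 0 h mean at 30 h (-1.88 (SE 0.26, adjusted p = 1.19e-05)) and Incenp, the scaffold, at 49.6% (-0.88 (SE 0.20, adjusted p = 0.00241)). A weaker probe set for Incenp gave -0.08 (SE 0.25) at 30 h, and with the mean of both the call was lost (adjusted p = 0.0530). From 21 h to 30 h the change of Incenp was -0.84 (SE 0.20, adjusted p = 0.0193), lost when 21 h B or 21 h C or 30 h A or 30 h C was left out (adjusted p 0.0724 to 0.116).

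Of the 4 spindle checkpoint genes limma called 0 higher at 14 h (0 unadjusted), 2 were lower at 21 h and all 4 at 30 h. Mad2l1, which encodes the Mad2 protein that blocks Cdc20, read 686.5, 614 and 592 before estradiol, 744, 656 and 682 by 3 h, and 551, 537 and 654 by 7 h. Mad2l1 then read 408, 461 and 558 by 14 h, 160.3, 405 and 355 by 21 h, and 43.4, 101 and 52.9 by 30 h. Every array from 14 h on was below every 0 h array, and at each step the arrays moved further down. The change was -0.39 (SE 0.28, adjusted p = 0.459) at 14 h, -1.08 (SE 0.28, adjusted p = 0.00738) at 21 h and -3.04 (SE 0.28, adjusted p = 6.22e-08) at 30 h, when 10.4% of the 0 h mean was left. The 21 h call was lost when 21 h A was left out (adjusted p = 0.0539). Ttk, the Mps1 kinase that starts checkpoint signalling, read 129, 141 and 151 before estradiol, 265, 192 and 216 by 3 h, and 117, 157 and 137 by 7 h. Ttk then read 95.9, 164 and 139 by 14 h, 60.9, 82.1 and 80.3 by 21 h, and 12.9, 18.5 and 23.3 by 30 h. Its 3 h arrays lay above those at 0 h, without passing the test (0.61 (SE 0.24, adjusted p = 0.41)), and its 21 h and 30 h arrays lay below. It fell by 0.74 (SE 0.24, adjusted p = 0.0309) at 21 h, a call lost when 0 h B or 0 h C or 21 h A was left out (adjusted p 0.0742 to 0.155), and fell by 2.18 (SE 0.24, adjusted p = 5.73e-07) at 30 h. Bub1, a checkpoint kinase, ended at 18.5% of its 0 h mean (-1.91 (SE 0.27, adjusted p = 1.85e-05)) and Bub3, its partner at the kinetochore, at 37.1% (-1.43 (SE 0.14, adjusted p = 2.42e-07)).

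Of the 4 measured regulators of the APC/C and of sister separation, 1 fell below its 0 h level, Cdc20, and 1 rose, Pttg1. Cdc20, the activator that carries the APC/C into anaphase, read 1394, 1638 and 1237 before estradiol, 1638, 1847.5 and 1534 by 3 h, and 1549.7, 1692 and 1588 by 7 h. Cdc20 then read 1688, 1803 and 2549 by 14 h, 1235, 1652.5 and 1889 by 21 h, and 253, 302 and 365 by 30 h. The 14 h arrays lay above all 0 h arrays without passing the test (0.43 (SE 0.16, adjusted p = 0.0927)), and the 30 h arrays lay far below. Cdc20 fell by 2.17 (SE 0.16, adjusted p = 3.97e-09) against 0 h and fell by 2.19 (SE 0.16, adjusted p = 8.98e-08) against 21 h. Pttg1, securin, the inhibitor of separase, had its peak at 21 h. It read 322, 375 and 370.1 before estradiol, 379.8, 361 and 365 by 3 h, and 413, 541 and 454 by 7 h. Pttg1 then read 684, 607 and 609.6 by 14 h, 669.8, 822 and 694 by 21 h, and 272, 367 and 423.5 by 30 h. Arrays at 7, 14 and 21 h lay above all those at 0 h, and the 30 h arrays overlapped them. Pttg1 rose by 0.86 (SE 0.15, adjusted p = 4.16e-04) at 14 h and 1.02 (SE 0.15, adjusted p = 3.2e-05) at 21 h and returned to 0.06 (SE 0.15, adjusted p = 0.831) at 30 h, a value whose sign turned under other scalings. The change from 21 h to 30 h was -0.96 (SE 0.15, adjusted p = 4.59e-04). With a near-background probe set averaged in, that call was lost (adjusted p = 0.335). Ube2c, the enzyme that hands ubiquitin to the APC/C, had means between 59.0 and 123 and was not called at 30 h (-0.30 (SE 0.29, adjusted p = 0.514)) or from 21 h to 30 h (-0.96 (SE 0.29, adjusted p = 0.0635)), a step in which it was called when 30 h B or 30 h C was left out (adjusted p 0.0422 to 0.0493). Cdca3, which promotes mitotic entry, had means between 84.8 and 154. It was not called at 30 h against 0 h (-0.24 (SE 0.20, adjusted p = 0.444)), and its call from 21 h to 30 h, -0.71 (SE 0.20, adjusted p = 0.048), was lost in 15 of the 18 fits that left out 1 array.

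The centromere genes were the group with 0 of 4 called at 30 h against 0 h by limma (1 higher and 1 lower unadjusted). Cenpa, the histone H3 variant that marks the centromere, read 266, 243 and 236 before estradiol, 344, 317 and 366.5 by 3 h, and 462, 531 and 511 by 7 h. Cenpa then read 668, 628.5 and 587.5 by 14 h, 565, 726 and 529 by 21 h, and 126, 203 and 271 by 30 h. Every array from 3 h to 21 h was above the 0 h arrays, and at 30 h the arrays spread on both sides of them. Cenpa rose by 1.01 (SE 0.19, adjusted p = 0.00267) at 7 h, 1.35 (SE 0.19, adjusted p = 4.25e-05) at 14 h and 1.27 (SE 0.19, adjusted p = 3.88e-05) at 21 h, up to 253% of its 0 h mean. It fell by 1.51 (SE 0.19, adjusted p = 5.05e-05) from 21 h to 30 h and ended at -0.24 (SE 0.19, adjusted p = 0.404). Cenpb, which binds a satellite repeat of the centromere, read 144, 128 and 99.8 before estradiol, 169, 126 and 179 by 3 h, and 167, 213 and 174.5 by 7 h. Cenpb then read 203, 195 and 202 by 14 h, 170.1, 167 and 140.0 by 21 h, and 199.8, 122 and 146 by 30 h. Its 7 h and 14 h arrays were above those at 0 h, and its 30 h arrays overlapped those of 0 h and 21 h. It was higher at 14 h (0.69 (SE 0.18, adjusted p = 0.0158)), a call lost when 0 h C or 14 h C was left out (adjusted p 0.0501 to 0.0868), and not called at 30 h against 0 h (0.39 (SE 0.18, adjusted p = 0.137)) or 21 h (-0.02 (SE 0.18, adjusted p = 0.974)). Cenpc1, a protein of the inner kinetochore, read 69.1, 69.6 and 61.5 before estradiol, 102.5, 95.2 and 124 by 3 h, and 111.5, 65.5 and 60.0 by 7 h. Cenpc1 then read 61.6, 87.0 and 62.1 by 14 h, 84.1, 85.8 and 42.6 by 21 h, and 13.7, 53.5 and 30.9 by 30 h. Its 3 h arrays were above and its 30 h arrays below all 0 h arrays. The 30 h change, -0.84 (SE 0.32, adjusted p = 0.0576), was called when 21 h C or 30 h B was left out (adjusted p 0.0056 to 0.0477), and, at adjusted p of 0.0328 to 0.0448, under 4 other settings. Cenpe, a kinetochore motor, had means between 6.33 and 31.5, below the median signal of the arrays at every time, and was not called in any comparison. Its change at 21 h, 0.98 (SE 0.37, adjusted p = 0.0693), was called when array 21 h B was left out (adjusted p = 0.0103) and with a replicate block (adjusted p = 0.0373). Without 21 h B its contrast of late against early change was called too (adjusted p = 0.0386).

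All 7 kinesin motors fell, both against 0 h and from 21 h to 30 h, and 2 of them had risen by 14 h. Kif20a, a motor of the central spindle needed for cytokinesis, read 518, 717 and 592 before estradiol, 889, 959 and 897 by 3 h, and 697, 921 and 994 by 7 h. Kif20a then read 903, 1225.5 and 1317 by 14 h, 559, 794 and 689 by 21 h, and 36.7, 59.4 and 102.5 by 30 h. Its 14 h arrays lay above all 0 h arrays, its 21 h arrays overlapped them, and its 30 h arrays were all near 100 or below. The rise was 0.90 (SE 0.23, adjusted p = 0.0109) at 14 h, lost when 0 h A or 14 h C was left out (adjusted p 0.0515 to 0.0545). The change from 21 h to 30 h, -3.13 (SE 0.23, adjusted p = 8.98e-08), was the largest fitted log2 fall of the 46 genes in that step. Its other probe set gave -2.41 (SE 0.28) at 30 h against 0 h, beside -2.98 (SE 0.23) here. Kif2c, which takes microtubules apart at the centromere, read 263, 256 and 264 before estradiol, 264, 284 and 296 by 3 h, and 358, 263 and 229.9 by 7 h. Kif2c then read 283, 337 and 294 by 14 h, 154, 189.6 and 244 by 21 h, and 27.1, 44.0 and 52.7 by 30 h. The 0 h arrays were nearly equal, those at 14 h lay above them, those at 21 h below, and those at 30 h lowest. Kif2c fell by 2.27 (SE 0.21, adjusted p = 6.7e-08) at 30 h, while -0.33 (SE 0.21, adjusted p = 0.333) at 21 h did not pass. Kif22, a motor that pushes chromosome arms outward, read 856, 1181.5 and 1043 before estradiol, 1345, 1154 and 1395 by 3 h, and 1273, 1384 and 1791 by 7 h. Kif22 then read 1444.5, 1289.7 and 1926 by 14 h, 967, 1539 and 1279.6 by 21 h, and 283, 424 and 352 by 30 h. Its 14 h arrays were above and its 30 h arrays below all those at 0 h. The rise at 14 h, 0.57 (SE 0.18, adjusted p = 0.0343), was lost when 0 h A or 0 h C or 14 h A or 14 h C was left out (adjusted p 0.0786 to 0.173) and under 4 other settings (adjusted p 0.0545 to 0.221). At 30 h it fell by 1.48 (SE 0.18, adjusted p = 1.76e-06). Kif11, which slides the spindle poles apart, fell by 1.81 (SE 0.34, adjusted p = 3.65e-04) at 30 h, Kif4, a motor on chromosome arms, fell by 1.07 (SE 0.21, adjusted p = 4.98e-04), Kif23, of the midzone, fell by 1.23 (SE 0.21, adjusted p = 1.54e-04), and Kifc1, a motor that walks to microtubule minus ends, fell by 2.17 (SE 0.53, adjusted p = 0.00409). Kifc1 was the noisiest, its 14 h arrays reading 45.1, 524 and 174. From 21 h to 30 h the call of Kif11 was lost when 21 h B or 21 h C or 30 h A or 30 h B was left out (adjusted p 0.0532 to 0.158) and that of Kifc1 when 21 h B or 21 h C was left out (adjusted p 0.0583 to 0.0672).

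Of the 4 genes of spindle assembly and poles, 3 ended below 0 h, Stmn1 had fallen by 21 h, and Nusap1 rose the most of all 46 genes. Stmn1, stathmin, which destabilizes microtubules and is switched off by mitotic kinases, read 2179.7, 2076 and 2104 before estradiol, 1804, 1865 and 1897 by 3 h, and 1942, 1803 and 1671 by 7 h. Stmn1 then read 1687.5, 2244 and 1959 by 14 h, 1014, 1587 and 1618 by 21 h, and 497, 553 and 509 by 30 h. Every 21 h array lay below all 0 h arrays, and the 30 h arrays lay close together far below. It fell by 0.75 (SE 0.13, adjusted p = 1.97e-04) at 21 h and fell by 2.05 (SE 0.13, adjusted p = 3.57e-10) at 30 h. Its step from 14 h to 21 h, -0.57 (SE 0.13, adjusted p = 0.0211), was the only call of that interval and was lost when 14 h B or 14 h C or 21 h A was left out (adjusted p 0.0606 to 0.109). Under median scaling the 21 h call was lost (adjusted p = 0.0769). Nusap1, which bundles spindle microtubules, read 139.6, 156 and 178 before estradiol, 308, 369 and 283 by 3 h, and 298, 225 and 247.5 by 7 h. Nusap1 then read 286, 723.5 and 393 by 14 h, 374, 641.5 and 546 by 21 h, and 81.1, 161 and 197.5 by 30 h. Every array from 3 h to 21 h was above the 0 h arrays, array B being highest at 14 h and 21 h, and the 30 h arrays overlapped those at 0 h. The rise was 1.43 (SE 0.29, adjusted p = 0.00182) at 14 h and 1.64 (SE 0.29, adjusted p = 2.61e-04) at 21 h, the change from 21 h to 30 h -1.71 (SE 0.29, adjusted p = 0.00109), and the change left at 30 h -0.07 (SE 0.29, adjusted p = 0.916). A weaker probe set for Nusap1 read means of 29.4 at 0 h and 11.5 at 30 h, not called (-0.67, SE 0.36, adjusted p = 0.209). Aspm, a spindle pole protein, read 124, 63.5 and 136 before estradiol, 210.3, 157 and 180.5 by 3 h, and 176, 118 and 192 by 7 h. Aspm then read 116, 245 and 165 by 14 h, 126, 130.2 and 135.5 by 21 h, and 4.2, 9.5 and 14.2 by 30 h. The 14 h and 21 h arrays overlapped those at 0 h, and the 30 h arrays were all under 15. Aspm fell to 8.64% of its 0 h mean (-2.24 (SE 0.28, adjusted p = 3.33e-06)). Tacc3, which holds spindle fibres together with Aurora A, fell to 19.0% (-1.63 (SE 0.26, adjusted p = 6.35e-05)).

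The 4 cytokinesis genes were not called at any time up to 21 h by limma (0 higher and 0 lower at 14 h unadjusted too), and all 4 fell at 30 h. Prc1, the bundler of the central spindle, read 326, 338 and 312 before estradiol, 349, 383 and 427 by 3 h, and 359.5, 282 and 359.6 by 7 h. Prc1 then read 395, 541 and 402 by 14 h, 224, 371.5 and 437 by 21 h, and 52.6, 101.5 and 93.8 by 30 h. The 14 h arrays lay above the 0 h arrays without passing the test (0.47 (SE 0.23, adjusted p = 0.217)), and the 30 h arrays were far below. Prc1 fell by 1.77 (SE 0.23, adjusted p = 4.53e-06), to 25.4% of its 0 h mean. Anln, anillin, the scaffold of the contractile ring, read 229.9, 219 and 358 before estradiol, 363, 329 and 359 by 3 h, and 258, 231.5 and 339 by 7 h. Anln then read 202.5, 377 and 297 by 14 h, 119.9, 276 and 253 by 21 h, and 8.3, 36.1 and 37.6 by 30 h. Its arrays overlapped across the times up to 21 h and stood apart at 30 h. The change was -2.74 (SE 0.33, adjusted p = 2.32e-06), to 10.2%. Racgap1, a part of the centralspindlin complex, fell by 1.39 (SE 0.18, adjusted p = 6.19e-06), and Ect2, the exchange factor that activates RhoA at the cleavage site, fell by 1.57 (SE 0.32, adjusted p = 8.27e-04).

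All 6 genes of chromosome structure fell by 30 h, and 3 of them, Top2a, Smc4 and Mki67, had risen by 14 h. Smc2, Ncaph and Rad21 were not called at 14 h, with fitted changes below 0. Top2a, the topoisomerase that untangles sister chromatids, read 384, 356 and 402 before estradiol, 530.4, 447 and 524 by 3 h, and 560.1, 459 and 532 by 7 h. Top2a then read 611, 759 and 735 by 14 h, 364, 596 and 580.5 by 21 h, and 39.8, 102 and 64.9 by 30 h. Its arrays from 3 h to 14 h lay above all 0 h arrays, and its 30 h arrays below. The change was 0.88 (SE 0.23, adjusted p = 0.0119) at 14 h and -2.25 (SE 0.23, adjusted p = 2.34e-07) at 30 h. Under median scaling the 14 h call of Top2a was lost (adjusted p = 0.0682). Mki67, the Ki-67 protein that coats mitotic chromosomes, read 504, 599 and 547.5 before estradiol, 685, 573 and 861 by 3 h, and 780.4, 788 and 829.6 by 7 h. Mki67 then read 702, 1209 and 1003 by 14 h, 490.2, 789 and 878 by 21 h, and 92.4, 143 and 148.5 by 30 h. Its 7 h and 14 h arrays were above and its 30 h arrays below those at 0 h. The change was 0.81 (SE 0.21, adjusted p = 0.0116) at 14 h, lost when 14 h B was left out (adjusted p = 0.069), and -1.92 (SE 0.21, adjusted p = 5.91e-07) at 30 h. A weaker probe set of an uncertain kind gave 0.36 (SE 0.31) for Mki67 at 30 h, and with the mean of both the 14 h call was lost (adjusted p = 0.816).

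Smc2 and Smc4 encode partners in 1 ring, condensin, and of these Smc4 was called higher at 14 h and Smc2 was not called. Smc4 read 606, 660.0 and 665 before estradiol, 845, 717 and 927 by 3 h, and 768, 797 and 1001 by 7 h. Smc4 then read 816, 1117 and 910.5 by 14 h, 585, 775 and 746 by 21 h, and 219, 306 and 269 by 30 h. From 3 h to 14 h every array lay above those at 0 h, and at 30 h every array lay below. Smc4 rose by 0.54 (SE 0.15, adjusted p = 0.0179) at 14 h, a call lost when 0 h A or 14 h B was left out (adjusted p 0.0616 to 0.0955), and fell by 1.17 (SE 0.15, adjusted p = 3.84e-06) at 30 h. Smc2 changed by -0.44 (SE 0.28, adjusted p = 0.406) at 14 h, not called, by -0.98 (SE 0.28, adjusted p = 0.0162) at 21 h and by -2.99 (SE 0.28, adjusted p = 9.55e-08) at 30 h, to 10.2% of its 0 h mean. Its 21 h call was lost when 0 h C or 21 h A was left out (adjusted p 0.0505 to 0.0841). The difference between Smc2 and Smc4 was not tested. Ncaph, the condensin subunit that closes the ring, fell to 7.14% (-2.61 (SE 0.26, adjusted p = 1.55e-07)). Rad21, the cohesin subunit that separase cuts, was not called at 14 h (-0.53, adjusted p = 0.0755). It was lower at 21 h (-0.68 (SE 0.19, adjusted p = 0.0135)), a call lost when 0 h A or 21 h A or 21 h C was left out (adjusted p 0.0613 to 0.0654) and under median scaling (adjusted p = 0.085). Rad21 was lower at 30 h too (-1.30 (SE 0.19, adjusted p = 2.23e-05)), and was the only gene lower at 30 h that was not called from 21 h to 30 h (-0.62 (SE 0.19, adjusted p = 0.0695)). It was called in that step when 7 h B or 30 h B was left out (adjusted p 0.0296 to 0.0438).

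Ranked by size, the falls at 30 h were led by Cdk1, Mad2l1, Smc2, Kif20a, Anln and Ncaph, each over 2.6 on the log2 scale. The 9 genes not called at 30 h against 0 h were Cdc25c, Ube2c, Pttg1, Cdca3, Cenpa, Cenpb, Cenpc1, Cenpe and Nusap1, with fitted changes from -0.84 to 0.40. Of these, Cdc25c, Pttg1, Cdca3, Cenpa and Nusap1 fell from 21 h to 30 h. Their 30 h arrays overlapped those at 0 h except in Cdca3, whose 30 h arrays (72.5 to 98.6) all lay below those at 0 h (103.5 to 118.7). Of the 46 genes, 9 were read by probe sets whose names mark probes that may read related transcripts or break a design rule (Cdc25c, Plk1, Ube2c, Pttg1, Cdca3, Kif20a, Kif22, Kifc1 and Nusap1). Among the 9 genes not called at 30 h, 5 were of that kind.

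Other lists hold genes that work beside this machinery, and differences between lists were not tested. The fixed parts of the APC/C fell in 3 of 9 measured genes at 30 h and rose in 2, with a median of -0.22. Anapc1, its largest subunit, fell from 551 at 0 h to 232 at 30 h (-1.10, SE 0.13, adjusted p = 1.8e-06), while Anapc5 rose at 21 h (0.56, SE 0.14, adjusted p = 0.00474) and was not called at 30 h (-0.03, SE 0.14). Of 6 cohesin and condensin partners 2 fell and 1 rose (median -0.15): Smc3, the cohesin partner of Smc1, fell (-0.92, SE 0.21, adjusted p = 0.00246) and Ncaph2, of the second condensin, rose (0.38, SE 0.14, adjusted p = 0.0497). Of 12 tubulins 3 fell and 4 rose (median 0.23), Tubb5 falling from 5171 to 3327 (-0.78, SE 0.12) and Tuba4a rising from 77.6 to 184 (1.18, SE 0.22). Of 9 microtubule and dynein factors 1 fell, the dynein light chain Dynll1 (-0.93, SE 0.13), and 2 rose, among them Dctn1 of dynactin (0.69, SE 0.18), with a median of 0.19. These shares stand beside 13.8% lower and 12.8% higher among all probe sets.

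Of 9 other regulators of entry and exit 7 fell at 30 h, with 0 higher by limma (0 unadjusted) and a median of -0.73. Among all probe sets 13.8% were lower at 30 h and 12.8% higher. Cks1b, the relative of Cks2, fell by 1.58 (SE 0.15, adjusted p = 9.45e-08), and Gmnn, geminin, which blocks relicensing of origins until mitosis ends, fell by 1.06 (SE 0.23) at 21 h and fell by 1.94 (SE 0.23) at 30 h. Of 3 outer kinetochore genes measured, Zwint rose at 30 h, from 1735 to 4323 (1.08, SE 0.13, adjusted p = 1.57e-06), and Zw10 was not called (-0.59, SE 0.31). Zwint was read by a probe set of the uncertain kind. Of 7 mitotic transcription factors 1 fell, Mybl2, the B-Myb protein that acts at CHR promoters with MuvB, from 430 to 87.9 (-2.04, SE 0.21, adjusted p = 2.91e-07). Nfya, a subunit of NF-Y, changed by -0.71 (SE 0.29, adjusted p = 0.0843).

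DNA replication genes, which act in S phase, are given beside the mitotic ones because both mark dividing cells. Of 31 measured, 3 were higher and 1 lower at 14 h (median -0.02), 1 higher and 20 lower at 21 h (median -0.86), and 0 higher and 28 lower at 30 h (median -2.22; 1 higher unadjusted). The mitotic genes had 17 higher and 0 lower at 14 h, 7 higher and 6 lower at 21 h and 0 higher and 37 lower at 30 h, with medians of 0.49, 0.19 and -1.52. From 21 h to 30 h 22 of the 31 replication genes and 41 of the 46 mitotic genes fell, against 3.12% of all probe sets. The contrast of late against early change was called below 0 in 2 and in 28, against 4.09% of all probe sets, a share that the 2 of 31 are near. The difference between the lists was not tested. Pold2, a subunit of DNA polymerase delta, had fallen from 935 at 0 h to 62.7 at 21 h (-3.59, SE 0.17, adjusted p = 2.03e-11), with 55.9 left at 30 h. Cdc6, which loads the replicative helicase, went the other way at first, from 494 to 1667 at 14 h (1.76, SE 0.11, adjusted p = 3.09e-09), and then fell to 185 at 30 h (-1.27, SE 0.11).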

How the data were processed

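Total RNA of 18 cultures was read on MG-U74Av2 arrays. The deposited values, per the labels, are linear signal intensity, with 1 value per probe set and array. How probes were summarised, the scaling target and the detection calls: not given in the sources used here. Tests ran on 12422 probe sets after 66 controls had been removed. GEO's platform annotation gave 10833 of them a single gene symbol, 396 several and 1193 none, and all 46 measured genes were found by gene number in RefSeq. No per-sample column was left unused (0 columns) and 0 pairs of arrays were identical.

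A constant of 16 was added, log2 was taken and arrays were quantile normalized. R 4.3.3 and limma 3.58.1 (lmFit, eBayes with an intensity trend) fitted 1 mean per time to all 18 arrays, with 12 residual degrees of freedom. P-values were adjusted by Benjamini-Hochberg over all probe sets within each comparison, with a threshold of 0.05, and measure the spread among 3 replicates a time. An exact permutation of 3 against 3 arrays cannot go below 0.1. The script was tested on simulated data. Figures and the promoter search used Python 3.11.15 and matplotlib 3.10.9.

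The genes and lists were chosen with earlier results of these data known. Every array is given for the 2 genes of each role that rank first in the F test, for each gene called higher at any time, and for the 3 strongest genes not called at 30 h. From each neighbouring pathway the 2 genes that rank first in it are named. Genes outside this rule were named for completeness of a role after their values were seen, Gp9 among the markers too. Same-lettered arrays were not treated as pairs: over 45 same-letter pairs their deviations from the group means correlated between -0.092 and 0.205, above 0.1 in 3. Alternatives were other scalings, constants of 1 and 64, a filter that removed the lowest 33.3% of probe sets, no intensity trend, array weights, a replicate block, only the groups compared, the mean over a gene's probe sets, and each array left out. The number of arrays limits the precision.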

Additional observations from a re-analysis of the deposited data

How the results depend on the processing

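With 1 array left out the count of genes lower at 30 h was 36 to 38, the count lower from 21 h to 30 h 37 to 42, the F test count 41 to 43 and the late contrast count 23 to 31. Under the other alternatives these 4 counts were 36 to 38, 33 to 43, 42 to 43 and 24 to 33. The 33 calls from 21 h to 30 h came with only the groups compared in the fit, which has fewer samples, and left out Aurkb, Ccnf, Cdc25c, Cdca3, Ect2, Incenp, Kif11 and Kif23. With 1 array left out 2 to 5 genes were higher at 7 h, 11 to 17 at 14 h, 4 to 9 at 21 h, and 2 to 7 were lower at 21 h. Counts near 0 ran from 0 to 1 for higher at 3 h, lower at 14 h and higher from 7 h to 14 h, and from 0 to 3 for lower from 14 h to 21 h. Under median scaling 1 gene was higher at 7 h and 8 at 14 h. The 1 gene lower from 14 h to 21 h became 0 without quantile normalization, under median scaling, without the intensity trend, with only the groups compared and with the mean of probe sets, and 2 with a constant of 64. In place of 0, 1 gene was higher at 3 h with array weights or only the groups compared, and with the latter 1 was lower at 14 h. The median change from 21 h to 30 h was -1.84 with a constant of 1 and -1.15 with 64, which also moved that at 30 h against 0 h to -1.20, since the constant shrinks changes of weak signals. Single values near 0 at 30 h changed sign: Pttg1 was -0.023 without quantile normalization and -0.012 under median scaling, Cdc25c 0.037 with array weights, and with 1 array left out Pttg1 ran from -0.071 to 0.22, Cenpa from -0.48 to 0.032, Cdc25c from -0.20 to 0.27 and Nusap1 from -0.29 to 0.28. Apart from the alternative's own construction, the cause was not tested. Signals near the array median, as those of 11 genes at 30 h, bound how deep a fall can be read.

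A replicate block by letter gave 17 genes higher at 14 h, 37 lower at 30 h and 41 lower from 21 h to 30 h, as without it. It gave 1 higher at 3 h, 5 higher at 7 h (Cdc25c added), 9 higher (Kif4 and Cenpe added) and 7 lower (Ncaph added) at 21 h, 3 lower from 14 h to 21 h, and 29 in the late contrast (Ect2 added). Of the 18 arrays 16 correlated best with their own letter, a hint from the data, not from the design.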
